A study of Mus musculus with 18 samples.

Results

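The 10 genes described here encode the 3 transforming growth factor beta (TGF-beta) ligands (Tgfb1, Tgfb2 and Tgfb3), the 3 receptors Tgfbr1, Tgfbr2 and Tgfbr3, and the 4 latent TGF-beta binding proteins Ltbp1, Ltbp2, Ltbp3 and Ltbp4. They were picked by name, and 10 of 10 were found among the 32285 genes of the count matrices. The data are single-cell RNA sequencing of dorsal dermis from 18 male wild-type C57BL/6J mice, kept in 12 hours of light and 12 hours of dark and about 54 days old, when the hair follicles rest (telogen). Each mouse gave 1 library of live sorted cells after collagenase digestion at 37 °C, and 3 mice were collected at each of 6 zeitgeber times (ZT2, ZT6, ZT10, ZT14, ZT18 and ZT22, in hours after lights on), on successive days. The labels give no treatment and no genotype other than wild type. The comparisons asked how much of each gene the fibroblasts and the immune cells of the dermis held, and whether these amounts followed a 24 h rhythm.

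TGF-beta ligands are made as precursors whose propeptide stays bound to the mature dimer after cleavage and keeps it inactive. Several, but not all, LTBPs bind this latent complex and anchor it to fibrillin-rich matrix, from which integrins, proteases and certain thrombospondins can release the active ligand. The active dimer is captured by TGFBR2, a kinase that recruits and switches on TGFBR1, and TGFBR1 passes the signal to Smad proteins, while TGFBR3 (betaglycan) has no kinase and presents the ligand to TGFBR2. In skin the pathway is known for driving collagen synthesis in fibroblasts and for restraining immune cells.

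The libraries held between 4850221 and 40827442 unique molecular identifiers (UMIs, 1 for each captured transcript). Of 23990 barcodes, 16877 passed the cell filter of the study. The clusters here called fibroblast-like, which had the fibroblast markers (Pdgfra, Lum, Dcn, Col3a1, Col1a1 and Col1a2), held 12027 cells. Those here called immune-like, with immune markers (Ptprc, Cd52, Cd74, Laptm5, Coro1a, Tyrobp and Fcer1g), held 3337 cells. Clusters of 564 and 67 cells with 6 of 6 fibroblast markers, and 1 of 38 cells with 5 of 7 immune markers, were left unnamed and out of both types. UMIs were summed over the cells of a type in each library, which gave 2881936 to 33477451 UMIs for fibroblast-like and 481549 to 5787721 for immune-like cells. A level below is the number of UMIs of a gene per 10000 UMIs of that cell type in 1 library, so it is relative to the other transcripts of the same cells. ZT6 replicate 2 and ZT10 replicate 3 shared 89 barcodes, of which none passed the filter in ZT6 replicate 2, and no other pair of libraries shared more than 4.

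The members lie on 8 chromosomes in the GRCm38 build. Tgfb1 (ENSMUSG00000002603) spans chr7:25687002-25705077 on the plus strand and Tgfb2 (ENSMUSG00000039239) chr1:186622792-186705989 on the minus strand, both annotated as protein-coding. The other ligand, Tgfb3, is at chr12:86056745-86079041 (minus). The receptors are at chr4:47353222-47414931 (Tgfbr1, plus), chr9:116084293-116175360 (Tgfbr2, minus) and chr5:107106570-107289629 (Tgfbr3, minus). The latent binders are at chr17:75005568-75392512 (Ltbp1, plus), chr12:84783212-84876532 (Ltbp2, minus), chr19:5740904-5758532 (Ltbp3, plus) and chr7:27305136-27337692 (Ltbp4, minus). The promoters of Tgfb1 and Tgfb2 are shown because these were ligands on opposite sides of the comparison between cell types and the members with the largest fitted swings over the day. RefSeq sequences (GRCm38.p6) of the 250 bases before the gene start were found for 8 of 10 members. Neither stretch below overlaps an annotated exon of its gene. In the first, chr7:25686752-25687001 (plus strand, 75.2% G and C), capitals mark 5 GC boxes (GGGCGG on either strand, the letters bound by Sp1). In the second, chr1:186705990-186706239 (minus strand, 53.6% G and C), capitals mark 1 E-box (CACGTG, the letters bound by the clock factors CLOCK and BMAL1) and 1 TATA box (TATAAA).
Tgfb1 promoter: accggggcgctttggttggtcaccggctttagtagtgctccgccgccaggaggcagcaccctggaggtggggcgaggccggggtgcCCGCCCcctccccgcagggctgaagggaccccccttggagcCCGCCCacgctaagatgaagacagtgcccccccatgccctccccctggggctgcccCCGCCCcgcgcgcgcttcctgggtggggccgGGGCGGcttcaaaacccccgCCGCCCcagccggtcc
Tgfb2 promoter: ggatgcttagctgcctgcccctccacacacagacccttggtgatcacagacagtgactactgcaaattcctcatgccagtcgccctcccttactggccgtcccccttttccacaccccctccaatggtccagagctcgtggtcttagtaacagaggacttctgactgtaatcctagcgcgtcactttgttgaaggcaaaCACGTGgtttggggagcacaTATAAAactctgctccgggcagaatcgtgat
Of 32851 mouse promoters of this length, 32.7% held a GC box, 6.02% an E-box and 12.4% a TATA box on either strand. Among the 8 members with an entry, Tgfb2 alone held an E-box or a TATA box, and none held the other clock-linked motifs searched, the D-box (TTANGTAA, 2.06% of promoters) and the RORE, bound by ROR and REV-ERB factors (0.177%). GC boxes were also found for Ltbp4 (7), Tgfbr1 (2) and Ltbp2 (2). The Smad element searched (CAGAC, 42.2% of promoters) had 2 matches in the Tgfb2 stretch, not marked above, and 0 in that of Tgfb1. A match describes letters in the window and not a bound site.

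Tgfb1 was higher in the immune cells, and the 8 other members that could be tested were higher in the fibroblasts. Its level in the 18 libraries ran from 1.29 through a median of 1.62 to 1.81 in immune-like cells, and from 0.0293 through 0.0400 to 0.0588 in fibroblast-like cells. The groups did not overlap. Tgfb1 was 38.3-fold higher in immune-like cells (log2 fibroblast over immune -5.26 ± 0.09, jackknife SE over libraries; adjusted p = 3.762e-26, edgeR quasi-likelihood test with the library as block, Benjamini-Hochberg over 11459 genes).

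Tgfb2 and Tgfb3, which signal through the same receptors, went the other way. Tgfb2 ran from 0.531 through 1.03 to 1.615 in fibroblast-like cells and from 0 through 0.0167 to 0.104 in immune-like cells, with 4 immune libraries at 0, where a count of 0 allows levels of up to 0.0131 to 0.0623 depending on depth. Its level was 54.6-fold higher in fibroblast-like cells (log2 5.77 ± 0.31, edgeR adjusted p = 1.703e-16). Tgfb3 ran from 0.194 through 0.260 to 0.2955 in fibroblast-like cells against 0 through 0.0115 to 0.0378 in immune-like cells, and was 19.05-fold higher in the former (log2 4.25 ± 0.26, edgeR adjusted p = 5.837e-18).

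The receptors differed from each other in how far the immune cells had them. Tgfbr3, the ligand-presenting co-receptor, had levels of 5.11 to 7.87 in fibroblast-like cells and 0.0299 to 0.728 in immune-like cells (46.7-fold, log2 5.55 ± 0.29). Tgfbr2, the ligand-binding kinase, was present in both, at 5.58 to 10.8 against 1.58 to 3.35, a 3.31-fold difference without overlap (log2 1.73 ± 0.11, edgeR adjusted p = 3.106e-16). Tgfbr1, the kinase that phosphorylates Smads, was the closest to even: 0.209 to 0.376 in fibroblast-like and 0.0415 to 0.277 in immune-like cells. Its libraries overlapped, although the fibroblast-like level was higher in 18 of 18 mice, and its difference of 2.004-fold (log2 1.00 ± 0.10, edgeR adjusted p = 1.052e-09) sat at the 2-fold limit set for a call. It fell below that limit when 9 of the 18 libraries were left out one at a time, with log2 values from 0.97 to 1.06.

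The latent binders that could be tested were higher in the fibroblasts. Ltbp1 ran from 1.84 through 2.24 to 2.54 in fibroblast-like and from 0 through 0.0491 to 0.158 in immune-like cells (35.99-fold, log2 5.17 ± 0.26), and Ltbp4 from 0.284 through 0.412 to 0.715 against 0 through 0.01325 to 0.0407 (25.2-fold, log2 4.66 ± 0.21). Ltbp3 had the smallest difference of the 3 latent binders tested, 0.737 to 1.07 against 0.0198 to 0.113 (13.1-fold, log2 3.71 ± 0.12). Ltbp2 was sparse, with 585 UMIs in all fibroblast-like cells and 5 in all immune-like cells, and did not pass the filter on low counts for this test. It was at 0 in 15 of 18 immune libraries, where a count of 0 allows levels of up to 0.00759 to 0.0623.

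In all, 8 of the 9 members tested were called higher in fibroblast-like and 1 in immune-like cells (edgeR adjusted p under 0.05 and over 2-fold), where 22% and 19.5% of all genes tested were called in these directions. Tgfb2, Tgfb3 and Ltbp4, with 83, 57 and 72 UMIs in immune-like cells, did not pass the filter on low counts there. They entered this test through the fibroblast-like cells, where they are high, so their direction was set in advance. The count of 8 therefore cannot be set against these shares. Of the 6 members tested for a rhythm in both cell types, 5 had levels that did not overlap between the cell types, against 30.1% of such genes.

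**Figure D1:**
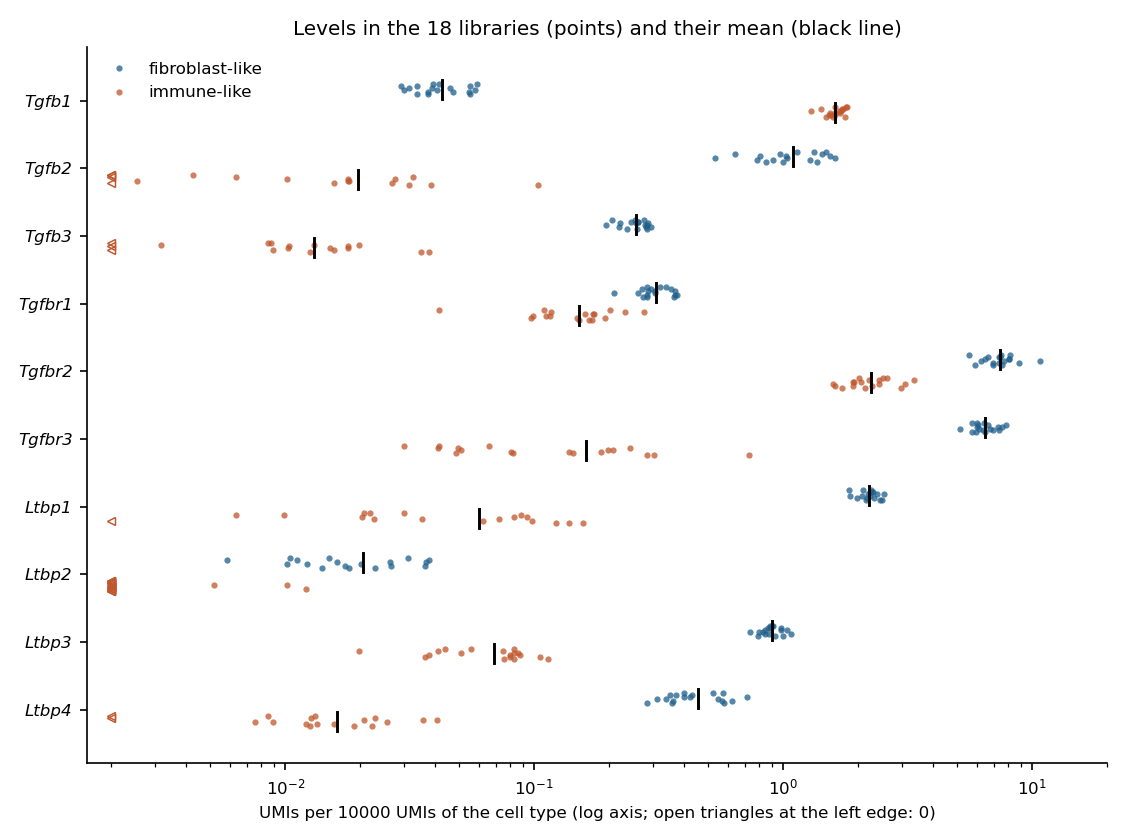
Level of each member in fibroblast-like (blue) and immune-like (orange) cells, in UMIs per 10000 UMIs of the cell type on a log axis, with 1 point per library (18 of each) and a black line at the mean; open triangles at the left edge are libraries at 0. Tgfb1 points lie to the right for immune-like cells (1.29 to 1.81) and to the left for fibroblast-like cells (0.0293 to 0.0588), the reverse of the order of means for the other 9 members.

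Free RNA and doublets can place fibroblast transcripts in immune sums, so the same ratio was taken for the markers that defined the cell types. The 6 fibroblast markers were in immune-like cells at 2.07% to 2.32% of their fibroblast-like level. Tgfb2 (1.79%) was below that range, and Tgfbr3 (2.51%) and Ltbp1 (2.72%) were just above it. Ltbp4 (3.58%), Tgfb3 (5.11%), Ltbp2 (7.46%) and Ltbp3 (7.65%) were further above, while Tgfbr2 (30.5%) and Tgfbr1 (49.3%) were far above. The immune-like clusters described below differed in this ratio. In macrophage-like cells the markers were at 0.572% to 1.11%, Tgfbr3 at 0.714% and Ltbp1 at 0.601%. In Ear2 Lyz1 myeloid-like cells the markers were at 5.22% to 5.68%, Tgfbr3 at 5.96% and Ltbp1 at 7.62%. These cells held 473 of the 677 Tgfbr3 UMIs of immune-like cells. How far free RNA and doublets made up the levels of the members was not tested. In the other direction, the 7 immune markers were in fibroblast-like cells at 0.0494% to 0.117% of their immune-like level, and Tgfb1 was at 2.63%. None of these 13 markers was at 0 over all libraries.

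Among the cells of each type, the levels of a member differed by cluster. Fibroblast-like clusters were named by a marker list where at least 3 of its genes were detected and 1 was among the 10 leading genes, and otherwise by their 2 leading genes. They comprised Pi16 progenitor-like (2621 cells), Cxcl10 Gm12840 (2164 cells, also led by the heat-shock genes Hspb1 and Hspa1a), Sult1e1 Igfbp3-like (2077), Krtdap Dmkn-like (1721), interferon-response-like (979), Cilp Mgp (750), Cthrc1 Tnmd-like (671), Cxcl14 Steap4-like (594) and inflammatory-like (450, led by Cxcl1 and Il6). Immune-like clusters comprised macrophage-like (1392, led by Folr2 and C1qa), Ear2 Lyz1 myeloid-like (988, in 2 clusters described next), dendritic-like (327), NK-like (273, led by Ccl5 and Gzma and with 6 of 7 T cell markers as well) and 3 smaller ones. The Ear2 Lyz1 myeloid-like cells joined a cluster of 412 cells led by Lyz1 and Ear2 with one of 576 cells led by Ly6c2 and Lyz1, which drew 31.2% of its cells from ZT2 replicate 3, and at a finer resolution 353 cells led by Ly6c2 took the name monocyte instead. Members and the other pathway genes listed below were kept out of the clustering. Levels were compared between clusters next to each other in the order of means, in the 13 clusters with at least 10 cells in 6 or more libraries, by a two-sided permutation test on paired libraries, and 32 of 120 pairs were called after adjustment over all of them.

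Tgfb1 was carried by all 4 immune-like clusters of this set. Its mean level was 1.69 ± 0.192 (SD, n = 18 libraries) in macrophage-like, 1.68 ± 0.271 (n = 17) in Ear2 Lyz1 myeloid-like, 1.36 ± 0.361 (n = 15) in dendritic-like and 1.304 ± 0.417 (n = 11) in NK-like cells. The first 2 were not told apart (log2 difference 0.01 ± 0.24 SD over 17 libraries, adjusted permutation p = 0.9704), and the step from Ear2 Lyz1 myeloid-like to dendritic-like cells was called (0.30, higher in 13 of 15 libraries, adjusted permutation p = 0.02933). Among the finer clusters the highest Tgfb1 mean was that of the monocyte-like cells (2.25), of which 44.8% came from ZT2 replicate 3. They were above macrophage-like cells (1.73) in 6 of 6 shared libraries (log2 difference 0.44, adjusted permutation p = 0.155). With 6 libraries the permutation p cannot fall below 0.031, so the test could not call this pair after adjustment. Between NK-like cells and the highest fibroblast-like cluster, Cthrc1 Tnmd-like, the mean dropped to 0.0883 ± 0.0400 (n = 15). Among the fibroblast-like clusters, 1 step was called, from Cilp Mgp at 0.0720 ± 0.0323 to Sult1e1 Igfbp3-like at 0.0412 ± 0.0151 (higher in 12 of 16 libraries, adjusted permutation p = 0.01826), and the lowest mean was 0.0228 ± 0.00966 in Krtdap Dmkn-like cells. In the finer clustering no Tgfb1 step between fibroblast-like clusters was called.

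Tgfb2 set Cthrc1 Tnmd-like cells above the other fibroblasts. Cthrc1 Tnmd-like cells, whose other leading genes include Ctsk and Tnfaip6, held 3.05 ± 1.00 (lowest 1.68, highest 5.04, n = 15). The next cluster, interferon-response-like, held 1.08 ± 0.331, lower in 15 of 15 libraries (adjusted permutation p = 0.001067). Cilp Mgp cells were the lowest fibroblast-like cluster at 0.245 ± 0.0734, below Cxcl14 Steap4-like cells in 16 of 16 libraries (0.830 ± 0.307, adjusted permutation p = 0.001067). The 7 clusters from interferon-response-like down to Cxcl14 Steap4-like cells held means from 0.830 to 1.08, and no neighbouring pair among them was called. Tgfb3 had a different order, with its highest mean in Cilp Mgp cells (0.360 ± 0.0980) and its lowest fibroblast-like mean in Cthrc1 Tnmd-like cells (0.158 ± 0.0590), which lay below inflammatory-like cells in 9 of 11 libraries (adjusted permutation p = 0.02631). Among the finer clusters, Cthrc1 Tnmd-like cells were again the lowest, but the step down to them was not called (adjusted permutation p = 0.9808).

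The receptors also set the Cthrc1 Tnmd-like cells apart. They held the highest Tgfbr1 of the 13 clusters (0.531 ± 0.104, above Cilp Mgp cells at 0.411 ± 0.0948 in 12 of 14 libraries, adjusted permutation p = 0.01826) together with the lowest fibroblast-like Tgfbr2 (4.09 ± 0.629) and Tgfbr3 (3.17 ± 0.527), each below the next cluster (adjusted permutation p = 0.008667 and 0.0012). Tgfbr2 was highest in Pi16 progenitor-like cells at 8.41 ± 1.50, but the 5 clusters from there down to 7.93 ± 1.98 in Cxcl10 Gm12840 cells were not told apart by any neighbouring pair. Macrophage-like cells held Tgfbr2 at 3.58 ± 0.620, above Ear2 Lyz1 myeloid-like cells at 1.29 ± 0.716 in 16 of 17 libraries (adjusted permutation p = 0.001067), and dendritic-like cells held 0.349 ± 0.233. Among the finer clusters, Lyve1 macrophage-like cells held 4.36, other macrophage-like cells 2.73, monocyte-like 0.607 and Ear2 Lyz1 myeloid-like cells 0.280. The macrophage-like and Ear2 Lyz1 myeloid-like values thus depended on how these cells were split. Lyve1 macrophage-like cells lay between the Cilp Thbs4-like (4.47) and Cthrc1 Tnmd-like (4.10) fibroblasts of that clustering. They were told apart from neither (adjusted permutation p = 0.741 and 0.7437). The Tgfbr1 step from Cthrc1 Tnmd-like to the next cluster was not called there (adjusted permutation p = 0.2984). The fibroblast markers were at 0.572% to 1.11% of their fibroblast-like level in macrophage-like cells and at 5.22% to 5.68% in Ear2 Lyz1 myeloid-like cells, and Tgfbr2 was at 49.0% and 15.7%. Tgfbr3 was highest in Sult1e1 Igfbp3-like (8.48 ± 0.975) and Cilp Mgp cells (8.07 ± 1.53), with the step down to Cxcl10 Gm12840 cells (6.88 ± 0.899) called (adjusted permutation p = 0.006). In the finer clustering no Tgfbr3 step from the highest cluster down to Krtdap Dmkn-like cells was called.

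The latent binders also differed between fibroblast-like clusters. Cilp Mgp cells, led by matrix genes that include Mfap4, Fmod and Thbs4, held the highest Ltbp2, Ltbp3 and Ltbp4 and the lowest fibroblast-like Ltbp1. Their Ltbp4 was 3.33 ± 1.24 (1.89 to 6.50 over 16 libraries), above Cxcl14 Steap4-like cells (1.63 ± 0.742) in 16 of 16 libraries, and these were above Cthrc1 Tnmd-like cells (0.423 ± 0.199) in 15 of 15 (adjusted permutation p = 0.001067 and 0.00108). Their Ltbp2 was 0.197 ± 0.119 against 0.0266 ± 0.0377 in the next cluster, higher in 14 of 14 libraries (adjusted permutation p = 0.001569), and 329 of the 585 Ltbp2 UMIs of fibroblast-like cells came from these 750 cells. Their Ltbp3 of 1.37 ± 0.243 exceeded that of Sult1e1 Igfbp3-like cells (0.992 ± 0.112) in 15 of 16 libraries (adjusted permutation p = 0.001067). Ltbp1 went from 2.85 ± 0.213 in Krtdap Dmkn-like and 2.71 ± 0.2496 in Pi16 progenitor-like cells, which were not told apart, to 0.650 ± 0.265 in Cilp Mgp cells, and 6 of the 8 steps between fibroblast-like clusters were called.

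**Figure D2:**
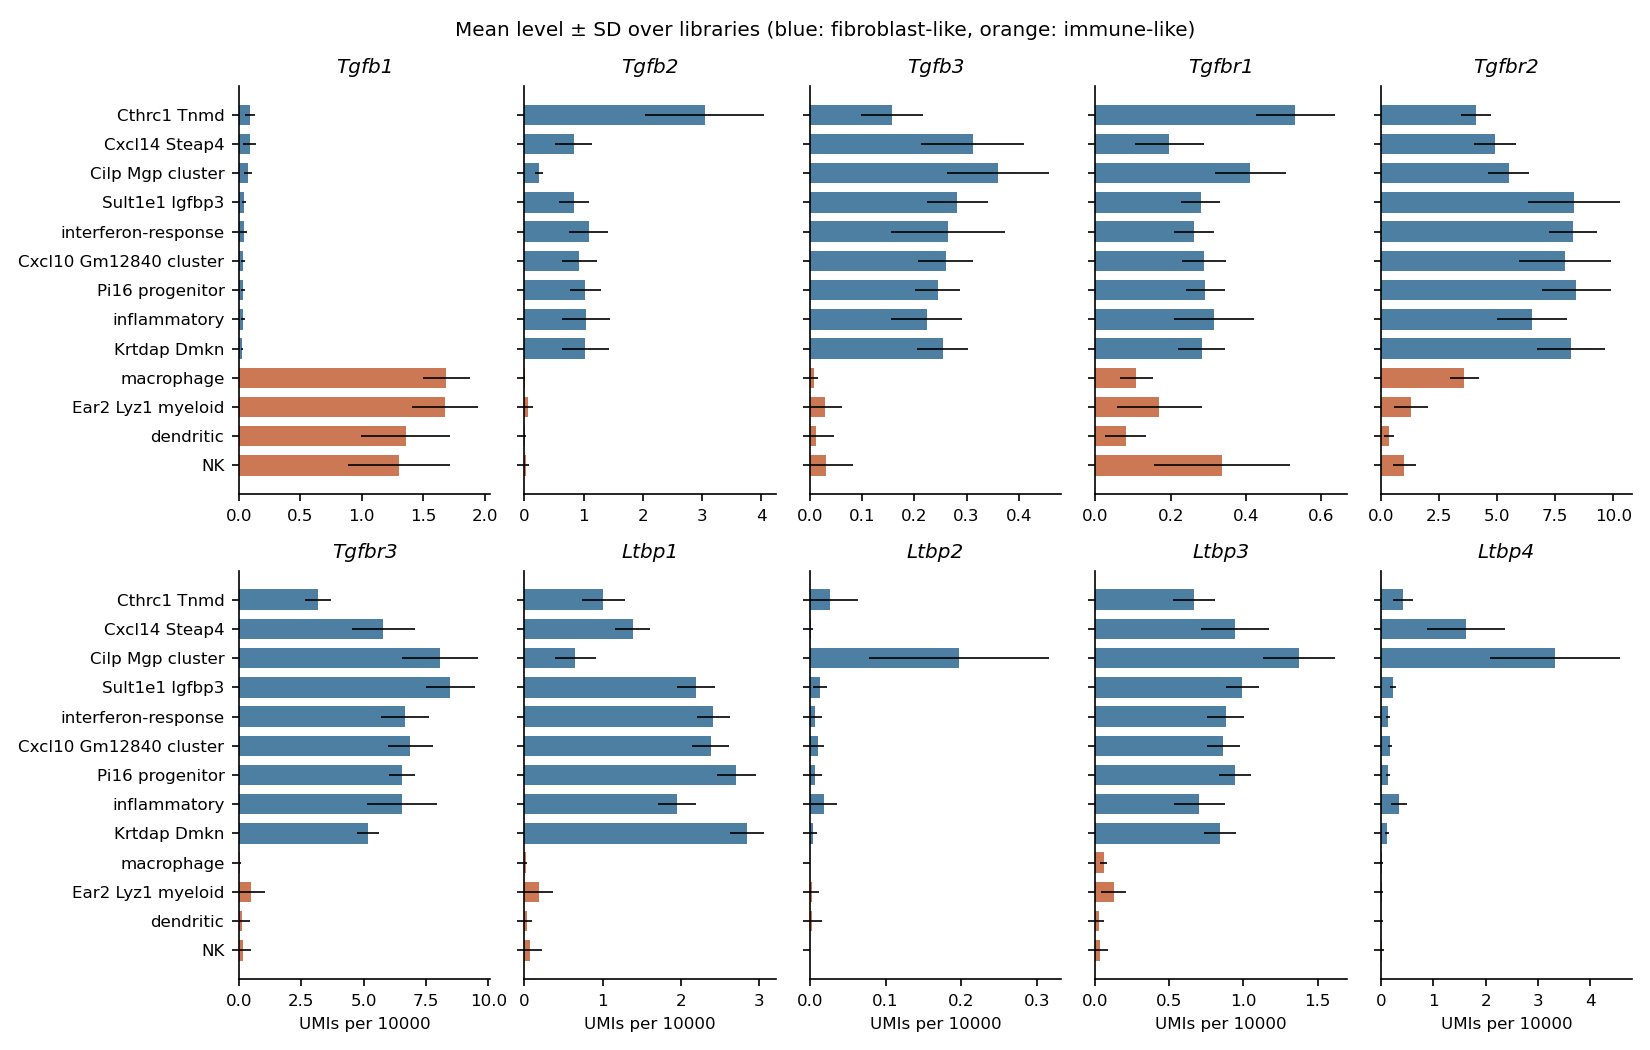
Mean level of each member (UMIs per 10000) in 13 clusters, as bars with the SD over the libraries that have at least 10 cells of the cluster (11 to 18 libraries; error bars stop at 0 on the left), blue for fibroblast-like and orange for immune-like. Tgfb1 has its long bars in the 4 immune-like clusters (1.304 to 1.69), Tgfb2 in Cthrc1 Tnmd-like cells (3.05), and Ltbp2 and Ltbp4 in Cilp Mgp cells (0.197 and 3.33).

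Over the day, Tgfb1 was the member that passed the test for a rhythm in fibroblast-like cells. Its levels in replicates 1, 2 and 3 were 0.0393, 0.0293 and 0.0314 at ZT2, 0.0407, 0.0474 and 0.0337 at ZT6, and 0.0588, 0.0552 and 0.0458 at ZT10. They were 0.0578, 0.0546 and 0.0553 at ZT14, 0.0416, 0.0337 and 0.0388 at ZT18, and 0.0299, 0.0373 and 0.0373 at ZT22. The 3 libraries of ZT14 were above every library of ZT2, ZT6, ZT18 and ZT22, and those of ZT10 overlapped with ZT6. The mean rose from 0.0333 ± 0.00529 at ZT2 to 0.0559 ± 0.00169 at ZT14 (SD, n = 3), and a 24 h cosine fitted to the summed counts had an amplitude of 0.41 ± 0.06 on the log2 scale (the height of the fitted peak above its mean level, with the jackknife SE over libraries), which is a 1.76-fold change from trough to peak, with the peak at ZT11.8 ± 0.7 h.

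This was 1 of 10 members called (edgeR adjusted p = 0.002392), where 13.3% of the 12751 genes tested were called. By a reimplementation of JTK_Cycle, the rank-based rhythm test used in the study, it was also the member called out of 10. The limit was the study's unadjusted 0.05, which 7.94% of genes passed. JTK_Cycle below stands for this version, which called fewer genes than the study did at that limit. Its shares are therefore not those of the study. Tgfb1 is a gene that the study itself selected from these samples as rhythmic, so its call here is not independent evidence. The call rests on few molecules, 12 to 167 Tgfb1 UMIs per library with a median of 60. Leaving out any 1 of the 18 libraries kept it (adjusted p from 0.00166 to 0.007395), and it was not called after the fibroblast sums were thinned to the immune-like depth (log2 amplitude 0.34, adjusted p = 0.3933).

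The markers of other cell types in the fibroblast sums were followed over the same times. The summed level of the 7 immune markers was between 0.0838 at ZT18 and 0.142 at ZT14, with library values from 0.0347 to 0.167, and 0 of the 4 that could be tested had a called rhythm. In the 9837 fibroblast-like cells without a UMI of any of the 7 immune markers, a set chosen after the data were seen, the Tgfb1 amplitude was 0.44 on the log2 scale (edgeR adjusted p = 0.002405). The summed level of 6 muscle markers went from 0.123 at ZT2 to 0.619 at ZT14, with 0 of 5 called, and its part in the result was not tested.

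In immune-like cells Tgfb1 was high at every time and no member passed the test. Its mean level was 1.735 ± 0.0564 at ZT2, 1.56 ± 0.0193 at ZT6, 1.76 ± 0.0507 at ZT10, 1.597 ± 0.101 at ZT14, 1.44 ± 0.166 at ZT18 and 1.64 ± 0.120 at ZT22 (SD, n = 3). The highest and lowest means differed by 1.22-fold, with a fitted log2 amplitude of 0.08 ± 0.04 (edgeR adjusted p = 0.8142). Of the 6 members tested, 0 were called by edgeR, DESeq2 or JTK_Cycle, and 1, Tgfbr2, had an unadjusted p under 0.05 by edgeR (adjusted p = 0.6199, log2 amplitude 0.22 ± 0.09, highest mean 2.67 at ZT2 and lowest 1.86 at ZT14). The unadjusted edgeR p was under 0.05 for 823 of all 10753 genes. Few genes of any kind were called in these cells, 0.0837% of the 10753 tested by edgeR and 1.19% by JTK_Cycle. On simulated immune-like counts edgeR recovered 0% of rhythms with a log2 amplitude of 0.2, 11.9% at 0.4 and 62.1% at 0.8. At 0.4 it recovered 47.8% on simulated fibroblast-like counts. A missing call in immune-like cells is thus not evidence that a gene lacks a rhythm of this size.

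The difference between the 2 cell types was tested directly, as an interaction of cell type and time of day with the library as block. Tgfb1 was called (log2 amplitude of the difference 0.39, edgeR adjusted p = 0.0259), as were 0.375% of 11459 genes, and the other 8 members tested were not (adjusted p from 0.5951 to 0.9644). The call was lost when any of 6 libraries was left out, namely ZT2 replicates 2 and 3, ZT10 replicate 1, ZT14 replicates 2 and 3 and ZT22 replicate 1 (adjusted p from 0.05217 to 0.09526 in these), and after thinning (adjusted p = 0.6511). The study had selected Tgfb1 from these same libraries as rhythmic in fibroblasts, so this call is not independent evidence either.

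**Figure D3:**
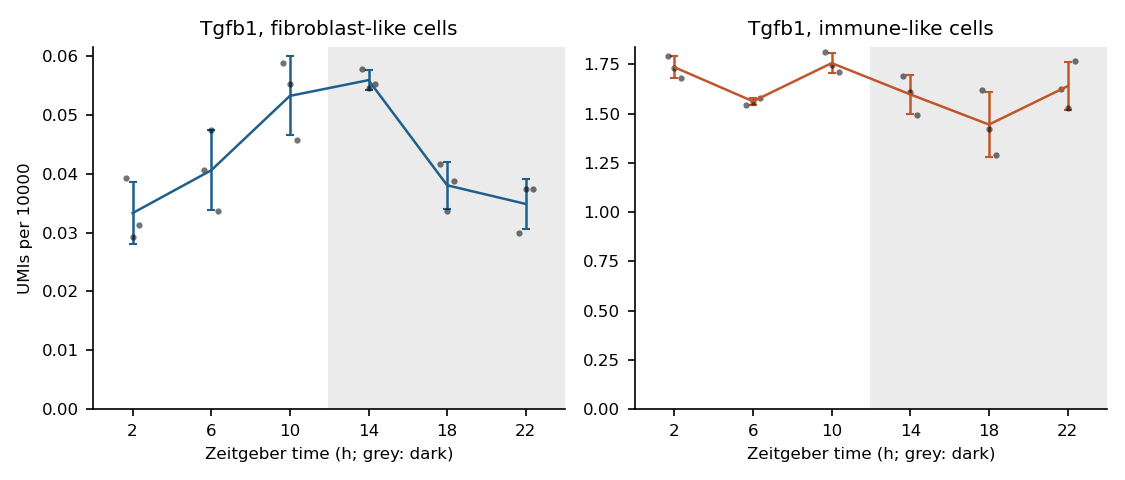
Tgfb1 level (UMIs per 10000) by zeitgeber time in fibroblast-like (left) and immune-like cells (right), with 1 point per library, a line through the means and bars for the SD of 3 libraries; the dark phase is grey and both axes start at 0. The fibroblast-like mean goes from 0.0333 at ZT2 to 0.0559 at ZT14, and the immune-like mean stays between 1.44 and 1.76.

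Tgfb2 had a fitted swing of the same size as Tgfb1 in fibroblast-like cells but more spread between mice. Its levels were 1.48, 1.43 and 1.55 at ZT10 and 0.531, 0.782 and 0.853 at ZT14, so these neighbouring times did not overlap, while ZT2 (0.973 to 1.34), ZT6 (0.996 to 1.615), ZT18 (0.640 to 1.14) and ZT22 (0.909 to 1.37) lay between or across them. The cosine had a log2 amplitude of 0.41 ± 0.13 with a peak at ZT5.7 and was not called (edgeR adjusted p = 0.09444), although DESeq2 called it (adjusted p = 0.02343). Tgfb3 stayed between means of 0.237 and 0.288 (log2 amplitude 0.11 ± 0.06, edgeR adjusted p = 0.3106). In the same cells 8 of 8 immediate early genes, such as Fos and Jun, which tissue dissociation can induce, had their lowest mean at ZT14, as did 5 of the 10 members (Tgfb2, Tgfb3, Tgfbr1, Tgfbr3 and Ltbp1) and Fbn1 and Mmp14, described below. The share of all genes with their lowest mean at ZT14 was not taken. The highest and lowest means differed by 1.21-fold for Tgfb3 and by 1.06-fold for Ltbp1. The summed level of the 8 immediate early genes was 58.1 ± 6.19 at ZT14 and 93.2 ± 5.67 at ZT10 (SD, n = 3). Of these genes, 0 of 8 had a called rhythm by edgeR or DESeq2, 5 had an unadjusted p under 0.05 by edgeR (as did 3716 of all 12751 genes), and their part in the results was not tested.

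Of the receptors, none was called, and all 3 had fitted log2 amplitudes of 0.14 to 0.17. On simulated fibroblast-like counts edgeR recovered 11.9% of rhythms with a log2 amplitude of 0.2. A missing call at such sizes is thus not evidence that a member lacks a rhythm. Of the 10 members, 4 had an unadjusted edgeR p under 0.05 (Tgfb1, Tgfb2, Tgfbr1 and Tgfbr3), as did 3716 of all 12751 genes. Tgfbr1 had means from 0.255 at ZT14 to 0.354 at ZT10 (edgeR adjusted p = 0.1649), and was called when the 6 times were fitted as separate groups instead of a cosine (adjusted p = 0.03917). Tgfbr2 was at 5.58, 6.63 and 6.46 at ZT10 and at 10.8, 6.96 and 6.98 at ZT14. ZT14 replicate 1 thus stood above all other libraries, the next of which was 8.88 at ZT22. Without it the Tgfbr2 rhythm was called, with a log2 amplitude of 0.18 (edgeR adjusted p = 0.008332), and with it not (0.15 ± 0.05, adjusted p = 0.1766). The same library supplied 62.2% of the 148 neutrophil-like cells, and the part of this in the Tgfbr2 level was not tested. Tgfbr3 had means from 5.74 at ZT14 to 7.16 at ZT10 (edgeR adjusted p = 0.1518).

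No latent binder was called, and Ltbp1 and Ltbp3 had the smallest fitted log2 amplitudes of the 10 members. Ltbp1 means stayed between 2.13 and 2.25 (log2 amplitude 0.04 ± 0.03, edgeR adjusted p = 0.799) and Ltbp3 means between 0.826 and 0.938 (0.05 ± 0.05, adjusted p = 0.7099). Ltbp4 had a log2 amplitude of 0.28 ± 0.12 (adjusted p = 0.1931). Ltbp2 was at 0.0311, 0.0378 and 0.0368 at ZT10, above the 3 libraries of ZT2 (0.0112 to 0.0161), but its log2 amplitude of 0.39 ± 0.29 was not called (edgeR adjusted p = 0.3221) and was called without ZT22 replicate 2 (0.64, adjusted p = 0.04724). It had 3 to 78 UMIs per library. Cilp Mgp cells, which held most Ltbp2 UMIs, were 52 of 512, 72 of 932 and 42 of 422 fibroblast-like cells at ZT10 (replicates 1 to 3). At ZT2 they were 22 of 383, 11 of 465 and 81 of 1511. The rhythms were also fitted to a mean over the fibroblast-like clusters at fixed weights, whose values are not given here. Beyond that, the part of this share in these Ltbp2 levels was not tested. The same limit holds for the other members whose levels differed between clusters.

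**Figure D4:**
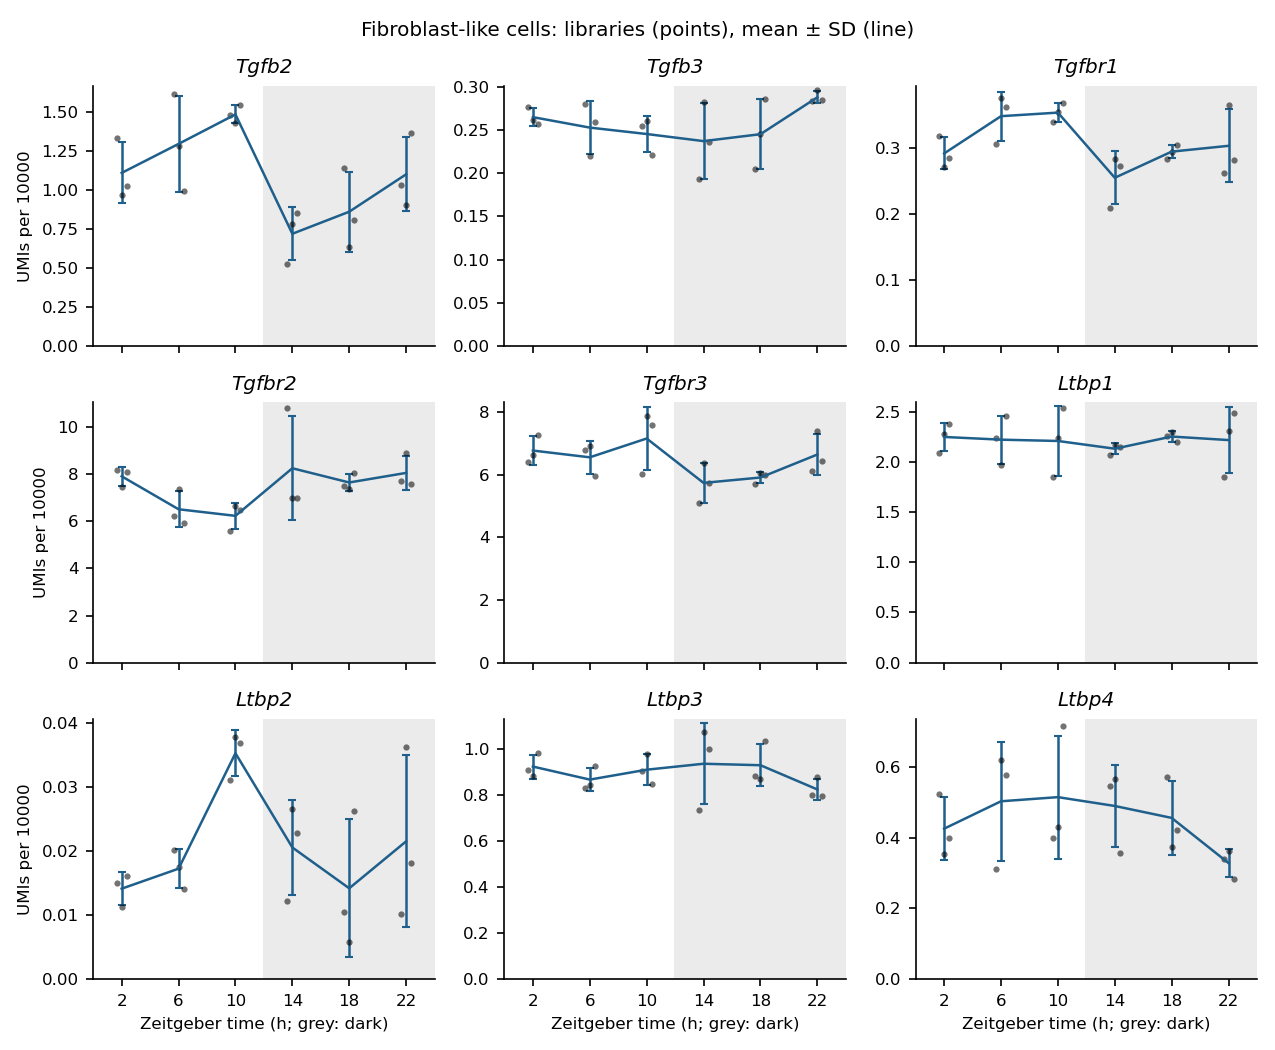
Levels (UMIs per 10000) of the 9 members other than Tgfb1 in fibroblast-like cells by zeitgeber time, with 1 point per library and a line through the means with the SD of 3 libraries; the dark phase is grey and each axis starts at 0. The Tgfb2 mean is 1.49 at ZT10 and 0.722 at ZT14, ZT14 replicate 1 is the high Tgfbr2 point (10.8), and Ltbp1 is level (2.13 to 2.25).

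Within the 8 fibroblast-like clusters with enough cells, 2 of 70 tests of a member were called, both in Sult1e1 Igfbp3-like cells, where 7.04% of genes were called. Of the 70, 20 had an unadjusted edgeR p under 0.05. Of all genes, between 825 of 7837 (Cxcl14 Steap4-like) and 2284 of 10650 (Pi16 progenitor-like) did so in a cluster. The shares of all genes called in the others were 8.23% in Pi16 progenitor-like, 5.40% in Cxcl10 Gm12840, 3.47% in Krtdap Dmkn-like, 2.86% in Cilp Mgp, 2.44% in interferon-response-like, 1.59% in Cthrc1 Tnmd-like and 1.05% in Cxcl14 Steap4-like cells. The called members were Tgfbr3 (log2 amplitude 0.17 ± 0.04, peak at ZT4.8, edgeR adjusted p = 0.02873) and Tgfb2 (0.44 ± 0.12, peak at ZT7.2, adjusted p = 0.04827). The Tgfb2 call was lost when 15 of the 18 libraries were left out one at a time (adjusted p up to 0.1335) and with the day of collection as a block (0.07093), and the Tgfbr3 call was lost for 5 libraries (up to 0.07944). Tgfb1 could be tested in 5 of these clusters and was called in none. Its unadjusted edgeR p was 0.008218, 0.04392 and 0.04779 in Cilp Mgp, Cthrc1 Tnmd-like and Cxcl10 Gm12840 cells. In Pi16 progenitor-like and Sult1e1 Igfbp3-like cells it was 0.2382 and 0.5761. Its largest fitted log2 amplitude there was 0.71 in Cilp Mgp cells, from 120 UMIs in all, with a peak at ZT12.0 (edgeR adjusted p = 0.1239). In the 3 immune-like clusters tested, 0 of 11 member tests were called by edgeR and 0 had an unadjusted p under 0.05, where 0.858% of all genes were called in macrophage-like cells and 0% in dendritic-like and Ear2 Lyz1 myeloid-like cells.

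Other genes of the pathway were read from 4 lists of 64 genes in all. In fibroblast-like cells 10 of the 58 tested were called rhythmic (17.2%, against 13.3% of all genes), and in immune-like cells 0 of 52 by edgeR. Of these 52, 4 had an unadjusted edgeR p under 0.05, as did 823 of all 10753 genes tested, and DESeq2 called 1, Mmp9. Of the genes for latency and activation, 3 of 14 were called in fibroblast-like cells. Fbn1, the fibrillin to which latent complexes attach, was at 26.65, 23.5 and 25.1 at ZT2 and at 14.3, 10.3 and 9.25 at ZT14, without overlap (log2 amplitude 0.57 ± 0.07, peak at ZT3.0 ± 0.5 h, edgeR adjusted p = 9.436e-06). Thbs2, a thrombospondin, had means from 1.51 at ZT22 to 2.44 at ZT6 (log2 amplitude 0.38 ± 0.05, edgeR adjusted p = 0.001508). Its place on this list does not show that it releases the ligand. Mmp14, a membrane metalloprotease that can release latent TGF-beta, had means from 1.57 at ZT14 to 2.57 at ZT2 (0.41 ± 0.10, adjusted p = 0.006395).

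Of the other receptors of the family, 1 of 11 was called. Acvrl1 (ALK1), a type I receptor that can take part in TGF-beta signalling, had means from 0.877 at ZT2 to 1.29 at ZT14 (log2 amplitude 0.21 ± 0.07, edgeR adjusted p = 0.03823), and its call was lost for 7 left-out libraries and with the day of collection as a block (adjusted p = 0.05168). Of the Smads and their inhibitors, 0 of 16 were called by edgeR. Of these 16, 5 had an unadjusted edgeR p under 0.05, as did 3716 of all 12751 genes tested. DESeq2 called 3, for which the share of all genes is not given here. Smad7, the inhibitory Smad that TGF-beta induces, had a log2 amplitude of 0.23 ± 0.12 (edgeR adjusted p = 0.2761) and Skil, a repressor of Smad activity, 0.17 ± 0.07 (adjusted p = 0.2023).

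Of the target genes, 6 of 17 were called (among them Ccn2, Cdkn1a and Lox, and also Id2 and Plod2, which the naming rule did not cover and which are named after their values were seen), and their times differed. Lox, which crosslinks collagen, had means from 1.67 at ZT18 to 3.13 at ZT6 (log2 amplitude 0.50 ± 0.14, edgeR adjusted p = 0.03507). Ccn2 (connective tissue growth factor) had means from 0.148 at ZT2 to 0.428 at ZT14 (0.88 ± 0.23, adjusted p = 0.04902) and Cdkn1a, the cell cycle inhibitor p21, from 0.182 at ZT10 to 0.852 at ZT22 (0.84 ± 0.23, adjusted p = 0.02814). The Ccn2 call was lost for 14 of 18 left-out libraries, the Lox call for 8 and the Cdkn1a call for 7, with adjusted p up to 0.09955, 0.0915 and 0.0648, and the Ccn2 call also with the day of collection as a block (0.077). With the times fitted as 6 groups, 4 of the named calls were lost, those of Mmp14, Acvrl1, Lox and Ccn2 (edgeR adjusted p = 0.05567, 0.06277, 0.1644 and 0.2566). Between cell types, 22% of all genes tested were called higher in fibroblast-like and 19.5% higher in immune-like cells. A gene could enter this test through 1 cell type alone, so these shares and the counts that follow can hold genes whose direction the filter set. Of the genes for latency and activation, 9 of 15 were called higher in fibroblast-like and 4 in immune-like cells, of the other receptors 6 and 1 of 11, of the Smads and their inhibitors 6 and 1 of 14, and of the target genes 14 and 3 of 17. The target genes include Col1a1, Col1a2 and Col3a1, which were also markers that named the fibroblast-like clusters. Their direction was therefore set in advance, and the count of target genes cannot be set against the share of all genes.

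**Figure D5:**
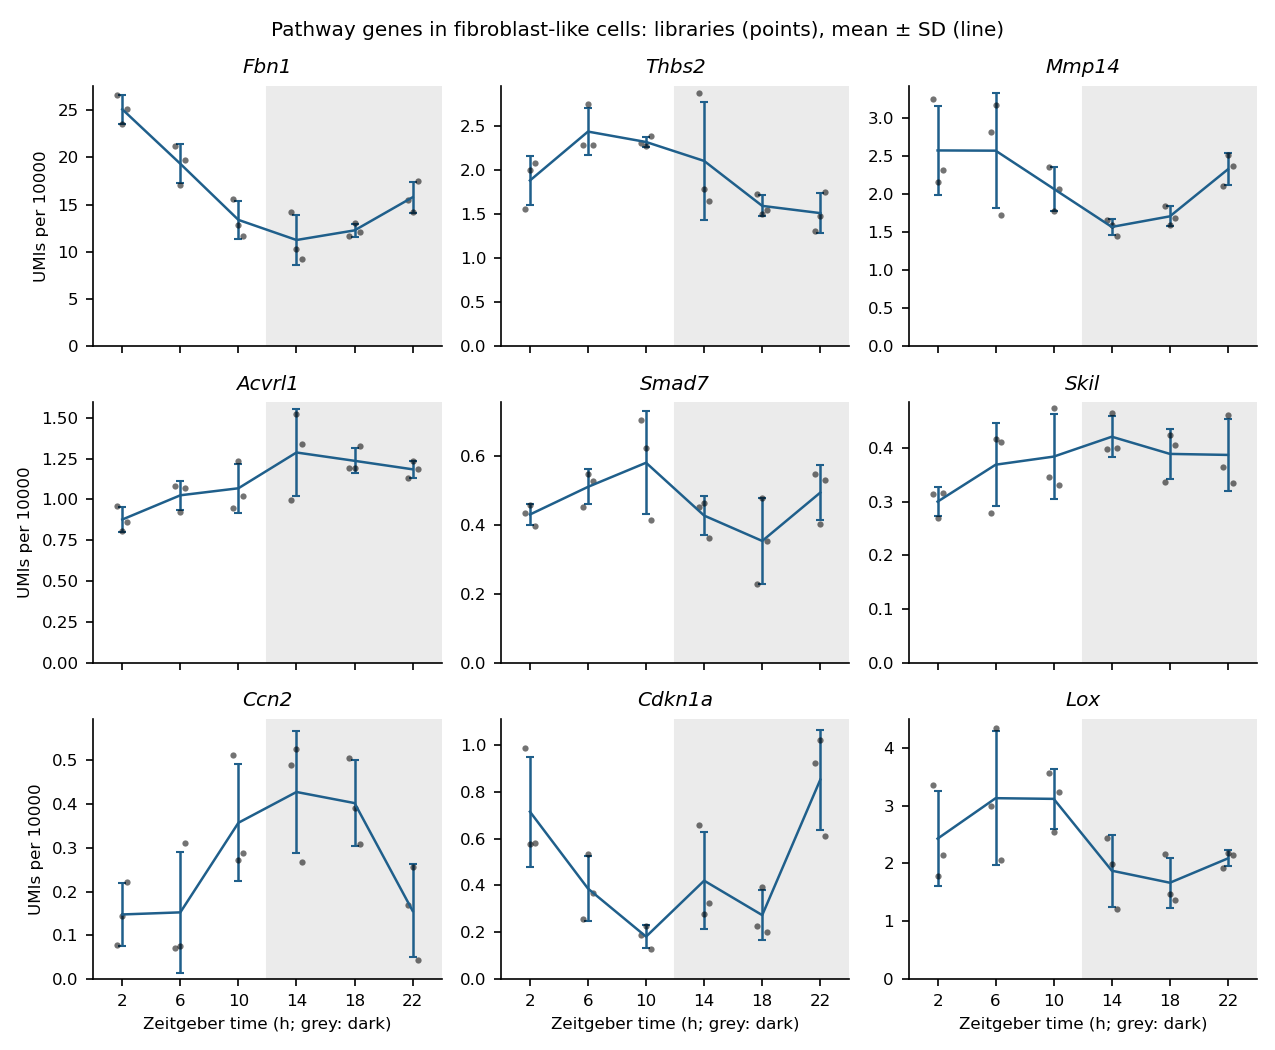
Levels (UMIs per 10000) of 9 named pathway genes in fibroblast-like cells by zeitgeber time, with 1 point per library and a line through the means with the SD of 3 libraries; the dark phase is grey and each axis starts at 0. Fbn1 is highest at ZT2 (25.1) and lowest at ZT14 (11.3) and Ccn2 has its highest mean at ZT14 (0.428).

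Among 5558 genes with a mean level of at least 0.2 in fibroblast-like cells, those whose level over the 18 libraries was most like that of Tgfb1 were Galnt2 (Pearson r = 0.946), Maco1 (0.903) and Crip2 (0.888). These values describe 18 points that share the depth and the cell composition of their libraries.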

How the data were processed

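Single cells of dorsal dermis from 18 mice were profiled with a 3′ droplet kit, each mouse giving 1 library. Reads were aligned by the authors to mm10 in Cell Ranger 3.1.0, and they deposited raw UMI counts per gene and cell barcode. These held 318 to 2322 barcodes per library, before the filter of the study on genes and mitochondrial UMIs. Such counts fall near the 3′ end and are compared between samples, not between genes.

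From these counts, barcodes with 850 to 7800 genes and under 13% mitochondrial UMIs were kept, the filter of the study. Per library this left 177 to 1998 cells with median depths of 16379 to 25855 UMIs. The integration used in the study was not repeated. Cells were clustered with scanpy 1.11.5 (2000 variable genes, 30 principal components, 15 neighbours, Leiden resolution 0.8) without the members and pathway genes, and named from marker lists, so names may differ from those of the study. Immune types are clusters of all cells and not of a separate sub-clustering. Doublets were kept in the main values, and 219 cells with the highest Scrublet scores were removed in an alternative.

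Counts summed per library and type were tested with edgeR 4.0.16 (R 4.3.3, TMM, filterByExpr, robust quasi-likelihood F test on 24 h cosine and sine terms, Benjamini-Hochberg over all genes tested, threshold 0.05). Cell types were compared with the library as block and called past 2-fold. In clusters a rhythm was tested with at least 10 cells in at least 15 libraries and 2 libraries at every time. Neighbouring levels were compared on log2(UMIs per 10000 + 0.05), whose differences understate changes of low levels, by flipping signs of library differences (100000 draws, all flips enumerated where under 10 libraries). SEs are jackknife SEs over libraries. A count of 0 was given the level of 3 counts as its limit, which covers counting error only. DESeq2 1.42.0, limma 3.58.1, a reimplementation of JTK_Cycle with periods of 20 to 28 h, other scalings, no filter, thinned counts and leaving out each library were alternatives. The reimplementation kept ties in its cosine templates and took p from a null without ties, which limits how small p can be. The methods were tested on simulated data.

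The replicate number marks the day of collection by the labels. Libraries of the same number deviated together only weakly in fibroblast-like cells (median correlation 0.13, 0.03 and 0.14 for numbers 1 to 3, -0.06 between numbers) and not visibly in immune-like cells (-0.01, -0.01 and 0.05, against -0.01). Same-time libraries differed beyond sampling noise (chi-square per gene at least 9.54).

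Members and lists were chosen with earlier results of these data known. All members are named, with the pathway genes called rhythmic in fibroblast-like cells (at most the 3 smallest adjusted p of each list) and Ccn2, Smad7 and Skil as textbook targets. A gene that the rule also covers is not reported here. As checks, 16 of 18 clock genes and 0 of 8 immediate early genes tested had a called rhythm in fibroblast-like cells (edgeR), and 7 of 17 and 0 of 8 in immune-like cells. Of the immediate early genes, Fos, Fosb, Jun, Egr1 and Ier2 had an unadjusted edgeR p under 0.05 in fibroblast-like cells, where 3716 of all 12751 genes did.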

Additional observations from a re-analysis of the deposited data

Results flagged for a closer look

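The rhythm of Tgfb1 was called different between the cell types by a test of the difference itself, the interaction of cell type and time of day (edgeR adjusted p = 0.0259 over 11459 genes, log2 amplitude of the difference 0.39, 18 libraries of each type). The study had selected Tgfb1 from these same libraries as rhythmic in fibroblasts, so this call is not independent evidence. The fibroblast-like amplitude was 0.41 ± 0.06 on the log2 scale with a highest mean of 0.0559 UMIs per 10000 at ZT14 and a lowest of 0.0333 at ZT2, and the immune-like amplitude was 0.08 ± 0.04 with means from 1.44 to 1.76. Over the left-out libraries the edgeR adjusted p of the difference ranged from 0.01379 to 0.09526, and after thinning it was 0.6511.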

How the results depend on the processing

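The number of members called rhythmic in fibroblast-like cells, 1 as reported, was 2 with DESeq2 (Tgfb1 and Tgfb2), 2 with the times as 6 groups (Tgfb1 and Tgfbr1) and 0 after thinning to the immune-like depth, and ranged from 1 to 2 over left-out libraries (2 without ZT14 replicate 1 or ZT22 replicate 2). The member whose rhythm differed between cell types, 1 as reported, became 0 after thinning and ranged from 0 to 1 over left-out libraries. Thinning leaves fewer UMIs by construction. Pathway genes called, 10 as reported, were 16 with DESeq2, 5 with 6 groups and 4 by JTK_Cycle, and ranged from 5 to 13 over left-out libraries. The 4 by JTK_Cycle are of 58 tested, where 7.94% of all genes were called. The shares of all genes called by DESeq2 and with 6 groups are not given here, so those counts cannot be set against them. They numbered 5 or 6 without ZT2 replicate 1, ZT6 replicate 1 or 2, ZT14 replicate 2, ZT18 replicate 3 or ZT22 replicate 2, and Fbn1, Thbs2 and Mmp14 were called in each of these. Member calls within fibroblast-like clusters, 2 as reported, were 1 with library totals, 6 with no filter and 1 with the replicate block, and ranged from 0 to 4 (0 without ZT14 replicate 2 or 3 or ZT18 replicate 2 or 3, and 4, of which 3 were Tgfbr2, without ZT14 replicate 1). They were 1 without ZT2 replicate 2, ZT6 replicate 2, any ZT10 library, ZT18 replicate 1 or ZT22 replicate 1 or 2. Within immune-like types the count was 1 with no filter, against 0. Neighbouring pairs called were 20 of 170 among 18 finer clusters, against 32 of 120 among 13. The steps from the highest cluster were called there for Tgfb2 and Ltbp4 and not for Tgfbr1. Beyond the changes given beside the results, the replicate block changed no other call. No result reversed. For these counts the cause was not tested unless named. In the comparison of levels, 8 to 10 of the members were called under every setting, Ltbp2 only with no filter, and Tgfbr1 fell under 2-fold with library totals (log2 0.99). The low counts of Tgfb1 and Ltbp2 in fibroblasts, and of 4 members in immune-like cells that could not be tested for a rhythm, limit what these data show.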

Other observations

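The 3 smaller immune-like clusters were too sparse for a comparison over libraries, and their levels are pooled over all libraries. Tgfb1 was at 2.50 UMIs per 10000 in the 155 cells led by Hmox1 and Hbegf (437 UMIs), at 1.22 in 54 mast-like cells (36 UMIs) and at 0.355 in 148 neutrophil-like cells (24 UMIs), of which 62.2% came from 1 library. Tgfbr1 was at 2.40 in mast-like cells (71 UMIs), against means of 0.0800 to 0.531 in the 13 larger clusters. The fibroblast markers were in mast-like cells at 0% to 0.609% of their fibroblast-like level. With no value per library, no error or test goes with these levels.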
